A study of Mus musculus with 13 samples.

Results

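Keratinocytes of the interfollicular epidermis, the skin surface between hair follicles, were compared between untreated skin and skin treated with Aldara for 1 day, in mice homozygous for a floxed Il12rb2 allele and without Cre. The comparison takes its 6 libraries by genotype and treatment from the labels (3 untreated, 3 Aldara), out of 13 in the study, and 16051 of 25746 counted genes were tested. The other 7 libraries, 4 untreated and 3 Aldara, come from K14Cre/+ Il12rb2fl/fl mice and enter here as a comparison. K14Cre expresses Cre recombinase from the keratin 14 promoter, which is active in basal keratinocytes. All mice were C57/BL6, all carried the floxed allele in both copies, and the cells were sorted by flow cytometry from skin. Aldara is a cream with 5% imiquimod. The untreated skin received no cream, so imiquimod and the other parts of the cream cannot be told apart. Ages, sexes, the surface markers of the sort and the amount of cream are not stated in the labels. Nothing in the labels says that replicates came from separate mice, so the p-values reflect the spread among these libraries alone, which may be technical.

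The epidermis renews itself from a basal layer of dividing cells, anchored to the basement membrane and marked by keratins 5 and 14. Cells that leave this layer stop dividing, switch to keratins 1 and 10, strengthen their desmosomes and finally form the cornified barrier. Imiquimod activates Toll-like receptor 7, and its cream is a standard way to produce psoriasis-like skin inflammation in mice, in which thickened epidermis and immune infiltration develop over days of treatment. Keratinocytes in this setting are both targets and sources of cytokines.

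The 6 libraries held 9256465 to 22232478 counts each. They were not all alike: untreated replicate 2 had 14.2% of its counts on 1 predicted gene, Gm10800, against at most 2.22% in the other 5, and counts on 22430 genes against 15896 to 19650. Mitochondrial transcripts took 7.17% to 15.9% of the counts with no order by treatment. Values below are CPM, the counts scaled to library depth, after scaling by TMM factors, in the order of replicates 1, 2 and 3, which carries no meaning of its own. Fold changes are log2, Aldara minus untreated, from edgeR's quasi-likelihood fit, with their standard error (SE). A gene was called, and is said to have risen or fallen, at a Benjamini-Hochberg adjusted p under 0.05 over all 16051 genes.

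The libraries carried the transcripts that define basal keratinocytes. Krt14 stood at 11523, 12587 and 21471 CPM untreated and 7168, 12647 and 6422 CPM after Aldara, and Trp63, the master transcription factor of stratified epithelium, at 492, 609 and 773 CPM untreated and 458, 549.9 and 366 CPM after Aldara. Neither passed the test, while Krt5 did and is described with the keratins. Il12rb2, the floxed gene, encodes the chain of the interleukin-12 receptor that passes on its signal. It was not deleted in these mice, which lack Cre. It stood at 17.1, 78.8 and 52.7 CPM untreated and 1.98, 8.14 and 2.68 CPM after Aldara, without overlap, and fell (log2 fold change -3.56 ± 0.83 (SE), adjusted p = 0.0192). Its adjusted p rose to as much as 0.106 when single libraries were left out. Tlr7, the receptor of imiquimod, was at 0.0737, 0.640 and 0 CPM untreated and 0, 0.116 and 0 CPM after Aldara, at most a handful of counts, and did not reach the minimum for a test.

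In all, 1132 genes were called (7.05% of those tested), 666 higher (4.15%) and 466 lower (2.90%) after Aldara. In 1114 of them the 3 treated and 3 untreated CPM values did not overlap, which was so for 4463 tested genes (27.8%). The falls were the larger changes. The median log2 fold change was 1.26 among genes that rose and -1.68 among genes that fell, and 75 rose but 168 fell by more than 4-fold. The median over all tested genes was -0.13. The count of called genes depended strongly on single libraries: it was 215 without untreated replicate 2 and 288 without untreated replicate 3. It was 422 without Aldara replicate 1 and 618 without Aldara replicate 2. Of the called genes named below, 40 kept their call in all 15 alternative analyses.

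The largest changes, among non-overlapping genes whose mean log2 CPM was 3 or more, spread over many functions. Besides genes described with their groups below, the 15 largest rises included St3gal5 (4.16), which makes the ganglioside GM3, and Ces4a (4.10), a carboxylesterase. Pctp, a carrier of phosphatidylcholine, stood at 22.8, 9.06 and 3.92 CPM untreated and 157, 157 and 92.1 CPM after Aldara (3.51 ± 0.82 (SE), adjusted p = 0.0201). Pnpla5, a triglyceride lipase, rose by 3.64 and Clstn3 by 3.36. Rdh1, a retinol dehydrogenase of the step towards retinoic acid, was at 2.36, 2.56 and 2.62 CPM untreated and 21.8, 45.1 and 24.8 CPM after Aldara (3.60 ± 0.62 (SE), adjusted p = 0.00612) and held in all alternatives. The 15 largest falls included Ccr4, a chemokine receptor, which stood at 5.97, 13.9 and 25.02 CPM untreated and 1.405, 0.232 and 0.195 CPM after Aldara (-4.57 ± 1.02 (SE), adjusted p = 0.016). Gna14, a G protein subunit, Golga7b and Mettl7a1 fell, at -4.07, -3.95 and -3.85.

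The genes were read through 46 lists that describe processes of keratinocytes. The largest share that rose was in ribosome production, followed by the respiratory and nucleotide lists, and the largest share that fell was in the ligands of epidermal T cells.

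**Figure D1:**
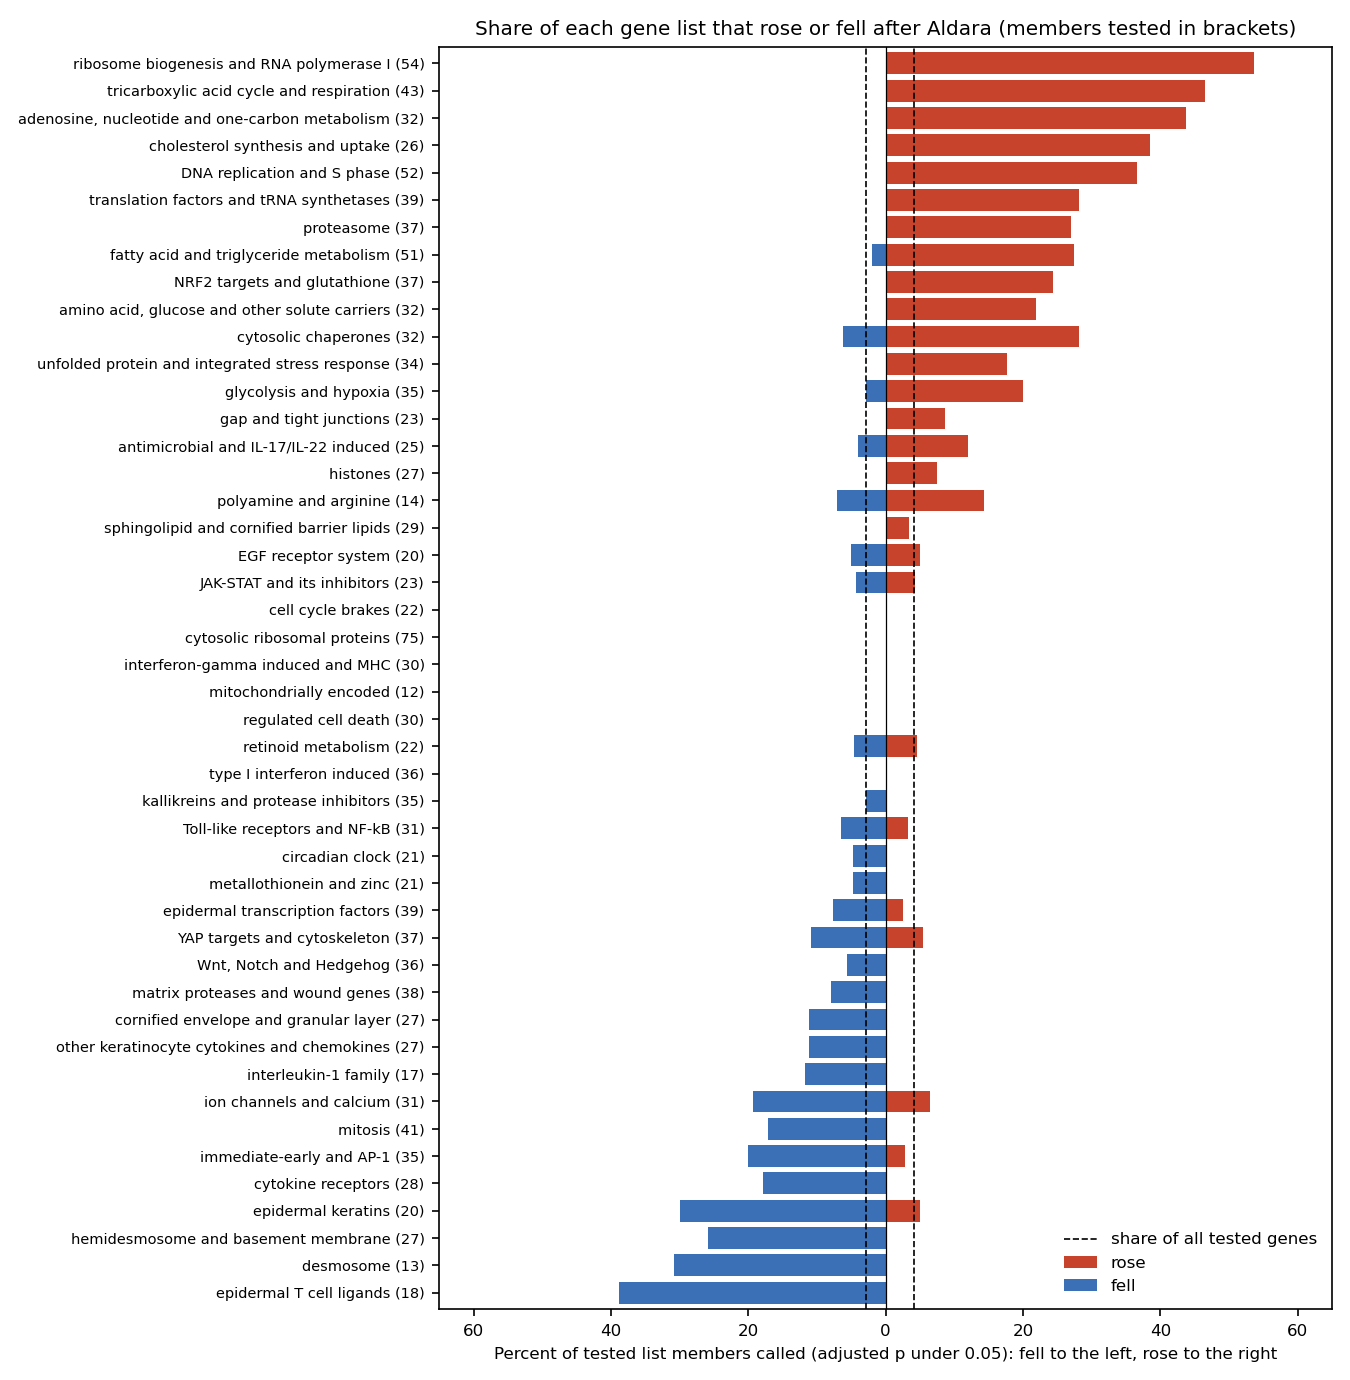
For each of 46 gene lists, the percent of tested members that rose (right, red) or fell (left, blue) after Aldara in floxed control keratinocytes, with dashed lines at the shares of all tested genes, 4.15% and 2.90%. Ribosome biogenesis (29 of 54) stands at the top and epidermal T cell ligands (7 of 18) at the bottom, and the ribosomal protein, mitochondrially encoded and interferon lists have no bar.

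Every called gene of the ribosome production list was higher. A ribosome is assembled in the nucleolus, where RNA polymerase I makes the ribosomal RNA precursor and a large set of factors cuts, modifies and folds it. Of 54 tested genes of this list, 29 rose (53.7%) and none fell, and all 54 fitted fold changes were above 0, with a median of 0.94. The fold changes of the 29 ran from 0.83 to 1.75. The list median lay between 0.91 and 1.10 in all 15 alternatives, while the number called was 6 without untreated replicate 2, 7 without untreated replicate 3, 15 without Aldara replicate 1 and 17 without Aldara replicate 2.

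Nucleolin (Ncl), an abundant nucleolar protein that binds the ribosomal RNA precursor, stood at 467, 400.2 and 371 CPM untreated and 998, 978 and 1149 CPM after Aldara. The treated libraries all lay well above the untreated ones, and the log2 fold change was 1.33 ± 0.23 (SE), adjusted p = 0.00616. Nucleophosmin (Npm1), the chaperone that carries ribosomal proteins in the nucleolus, went from 495, 376 and 482 CPM to 1072, 939.8 and 1131 CPM (1.22 ± 0.22, adjusted p = 0.0067). Nolc1, a scaffold that gathers small nucleolar ribonucleoproteins, had 78.1, 47.2 and 56.0 CPM untreated and 189, 210.1 and 165 CPM after Aldara. Its log2 fold change was 1.64 ± 0.23 (SE), adjusted p = 0.0029. The cytosine methyltransferase of ribosomal RNA, Nop2, stood at 51.0, 40.9 and 39.1 CPM untreated and 108, 124 and 118 CPM after Aldara (1.42 ± 0.26, adjusted p = 0.00702). In each of these 4 genes the lowest treated library lay above the highest untreated one, and each kept its call in all 15 alternatives.

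Core proteins of the snoRNPs that guide RNA modification were also among the risen genes. Nop56 and Nop58, of the methylating particle, rose by 1.01 and 1.10, and the methyltransferase itself, Fbl, by 0.84. Dkc1, Gar1 and Nhp2, of the pseudouridylating particle, rose by 1.25, 1.56 and 0.99. Factors of the small subunit (Bysl 1.13, Rrp9 1.36, Rrp12 1.75) and of the large subunit (Wdr12 1.34, Noc2l 1.72) were among the 29. So was Polr1a, the largest subunit of RNA polymerase I (1.24), whereas Polr1b, its second largest, had 0.86 and did not pass (adjusted p = 0.0557).

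The ribosomal proteins themselves had a lower median and no call. None of 75 tested genes was called by edgeR (7 at an unadjusted p under 0.05), although 73 of the 75 fold changes were above 0, with a median of 0.38. DESeq2 called 1 of them and limma voom none. Rps2, with 857, 654 and 979 CPM untreated and 1374, 1196 and 1418 CPM after Aldara, had 0.68 ± 0.25 (adjusted p = 0.115). The lower median of this list against that of the assembly factors was not tested. In a simulation of this contrast 4 of 100 planted 2-fold changes were called, though with fewer genes changed than were called in the data. The lack of calls here does not show a lack of change.

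The apparatus that charges and starts translation lay between these lists. Of 39 tested translation factors and transfer RNA synthetases, 11 rose (28.2%) and none fell, with a median of 0.78. Cytosolic synthetases made up most of this number, among them Eprs (200.4, 142 and 178 CPM untreated and 363, 332 and 383 CPM after Aldara, 1.05 ± 0.20, adjusted p = 0.00783), and the rest were Aars, Farsb, Gars, Kars, Nars and Rars, at 0.85 to 1.18. Eif3b rose by 2.10, with Aldara replicate 3 far above the other treated libraries (129, 103 and 474 CPM). Eif4ebp1, the repressor of cap-dependent initiation, also rose (1.17). Leaving out untreated replicate 2 left none called, untreated replicate 3 left 3 and Aldara replicate 1 left 5. The 6 floxed libraries alone gave 7 and DESeq2 21.

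Enzymes that make the building blocks of nucleic acids had rises and no falls. Of 32 tested genes of nucleotide and one-carbon metabolism, 14 rose (43.8%) and none fell, with a median of 0.91. Cad, the enzyme that carries out the first steps of pyrimidine synthesis, stood at 42.5, 48.7 and 46.7 CPM untreated and 107, 115 and 84.7 CPM after Aldara. The treated libraries did not overlap with the untreated ones (1.15 ± 0.22 (SE), adjusted p = 0.00827), and the call held in all 15 alternatives. Purine synthesis was represented by its first enzyme Ppat (1.59), by Gart (1.37), Adsl (0.93), Impdh1 (1.77) and Gmps (0.68). In the mitochondrial folate pathway Mthfd2 rose from 11.5, 4.58 and 8.30 CPM to 31.9, 43.9 and 66.6 CPM (2.54 ± 0.53 (SE), adjusted p = 0.0121). The serine-producing enzymes Phgdh (1.23) and Psat1 (1.12) rose too. Of these 14 genes, 1 was called without untreated replicate 2, 3 without untreated replicate 3, 5 without Aldara replicate 1 and 7 without Aldara replicate 2. The 6 floxed libraries alone gave 8 of the list.

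Polyamines, small cations that growing cells need for translation, had opposite changes at their synthesis and breakdown steps. Spermidine synthase (Srm) stood at 80.1, 53.9 and 65.9 CPM untreated and 295, 233 and 239.7 CPM after Aldara (1.94 ± 0.25 (SE), adjusted p = 0.00186), and kept its call in all 15 alternatives. Sat1, which acetylates polyamines for export and breakdown, was at 419, 930.3 and 963 CPM untreated and 105, 176 and 279 CPM after Aldara and fell (-2.05 ± 0.44 (SE), adjusted p = 0.0135). Its highest adjusted p without a single library was 0.0661. Odc1, the enzyme upstream of Srm, had 25.3, 22.2 and 26.5 CPM untreated and 27.7, 27.0 and 75.2 CPM after Aldara and did not pass (adjusted p = 0.244).

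Protein folding and turnover followed. Of 37 tested proteasome genes 10 rose (27.0%), none fell, and all 37 fold changes were above 0 (median 0.68). They included subunits of the catalytic core (Psma5 1.22, Psma7 1.39, Psmb3 0.91), of the regulatory particle (Psmc2 0.92, Psmd12 0.95) and the assembly factor Pomp (0.93). The number called was 5 without untreated replicate 1, 0 without untreated replicate 2, 1 without untreated replicate 3, and 2 without either Aldara replicate 1 or 2. It was 3 with no filter on low counts, 4 for the 6 floxed libraries alone, 16 by limma voom and 20 by DESeq2. Of 32 chaperones 9 rose and 2 fell. The pair Hspd1 and Hspe1, which form the folding chamber of mitochondria, stood out: Hspd1 was at 256, 146 and 169 CPM untreated and 932, 825 and 519 CPM after Aldara (1.996 ± 0.29 (SE), adjusted p = 0.00296), and Hspe1 had 1.70 ± 0.35. The cytosolic chaperonin subunits called rose by 0.82 to 1.04 (Cct3, Cct5, Cct6a and Tcp1). The small ones went the other way. Hspb1, a small heat shock protein of differentiating keratinocytes, was at 364, 419 and 486 CPM untreated and 167, 173 and 171 CPM after Aldara (-1.31 ± 0.19 (SE), adjusted p = 0.00296), and Hspb8 had -1.46 ± 0.37. The calls of Hspd1 and Hspb1 held in all 15 alternatives, whereas the number of chaperones that rose was 1, 3, 2 and 3 without untreated replicate 2, untreated replicate 3, Aldara replicate 1 and Aldara replicate 2.

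Many nuclear genes of mitochondrial respiration rose, while those on the mitochondrial genome were not called. Of 43 tested nuclear genes of the tricarboxylic acid cycle and respiratory chain, 20 rose (46.5%) and none fell, with a median of 0.90. Mdh2, the mitochondrial malate dehydrogenase, had 252, 222.4 and 303 CPM untreated and 660.3, 690.0 and 691 CPM after Aldara, with the 3 treated values close together (1.39 ± 0.20 (SE), adjusted p = 0.00296). Cytochrome c (Cycs) stood at 68.6, 41.8 and 58.3 CPM untreated and 167, 135 and 139 CPM after Aldara (1.39 ± 0.24 (SE), adjusted p = 0.00612). Both subunits of succinyl-CoA synthetase tested rose, Suclg1 by 1.31 ± 0.23 and Suclg2 by 1.26 ± 0.22. Members of complexes I (Ndufa4, Ndufs3, Ndufv1), II (Sdhb, Sdhd), III (Uqcrc2, Cyc1), IV (Cox4i1, Cox5a) and the ATP synthase (Atp5a1, Atp5o) rose by 0.83 to 1.61. The cytosolic enzymes Aco1 (1.83 ± 0.32), Idh1 (1.44), Acly (1.5) and Me1 (1.57), which handle citrate and produce cytosolic acetyl-CoA and NADPH, were also in this list. Mdh2, Cycs, Suclg1, Suclg2 and Aco1 kept their calls in all 15 alternatives.

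The 12 tested protein-coding genes of the mitochondrial genome gave no call and a median of -0.15, which went from -0.53 to 0.18 over the alternatives, so it had no stable sign. At an unadjusted p under 0.05 there were 0. The gene with the smallest p, mt-Nd3, stood at 59.7, 49.4 and 58.3 CPM untreated and 41.2, 42.1 and 6.13 CPM after Aldara (adjusted p = 0.303). limma voom called 1 of the 12, lower, and DESeq2 none. Of the nuclear list, 6 genes were called without untreated replicate 2, 8 without untreated replicate 3, 6 without Aldara replicate 1 and 9 without Aldara replicate 2, against 13 for the 6 floxed libraries alone and 31 by DESeq2.

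**Figure D2:**
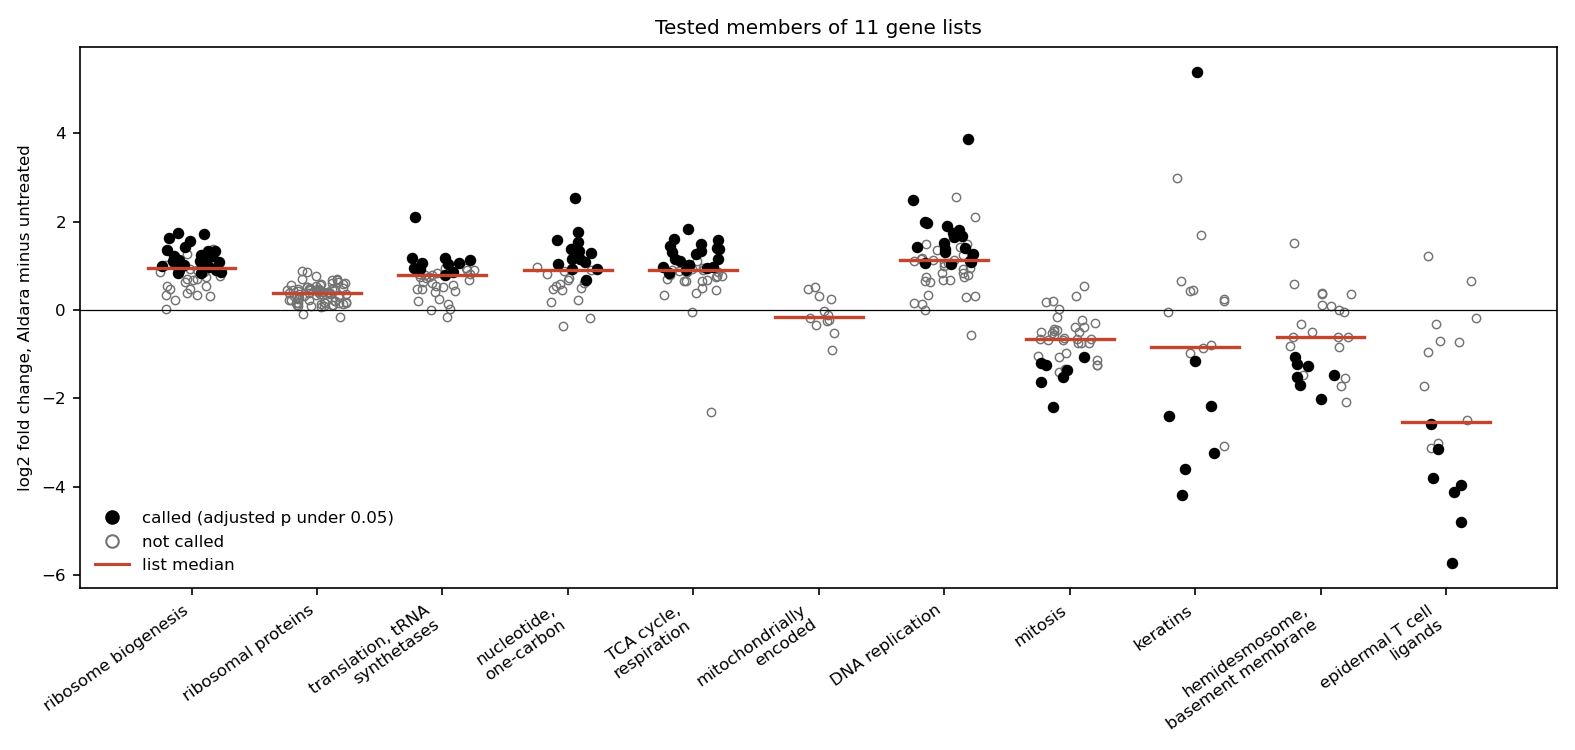
Log2 fold change of each tested member of 11 gene lists in floxed control keratinocytes (y axis), with called genes filled, others open, and a red line at each list's median. All 54 ribosome biogenesis genes lie above 0 with a median of 0.94, the 75 ribosomal proteins lie closer to 0 with none called, and DNA replication (median 1.12) lies opposite mitosis (median -0.67).

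Among 32 solute carriers 7 rose and none fell. Slc1a3, a glutamate and aspartate transporter, stood at 23.0, 26.7 and 15.0 CPM untreated and 109, 66.1 and 72.7 CPM after Aldara (1.94 ± 0.35 (SE), adjusted p = 0.0067), and Slc25a10, which carries dicarboxylates across the inner mitochondrial membrane, at 67.2, 32.0 and 43.4 CPM untreated and 237, 248 and 110.1 CPM after Aldara (2.06 ± 0.36 (SE), adjusted p = 0.00612). Both kept their calls in all alternatives. Slc7a5, the large neutral amino acid transporter, rose by 2.99 ± 0.58, with 43.4, 44.3 and 164 CPM in the treated libraries, and the lactate carrier Slc16a1 by 2.34 ± 0.47. In the list of glycolysis and hypoxia genes 7 of 35 rose and 1 fell. The risen ones included 3 enzymes of the pentose phosphate pathway, Tkt (286, 223 and 279 CPM untreated and 1009, 837 and 485 CPM after Aldara, 1.57 ± 0.29 (SE), adjusted p = 0.00766), Pgd (1.51 ± 0.27) and Taldo1 (0.97 ± 0.23). Tkt and Pgd held in all alternatives. Fbp1, a gluconeogenic phosphatase, rose from 1.99, 1.28 and 0.0902 CPM to 22.2, 24.8 and 15.5 CPM (4.24 ± 1.07 (SE), adjusted p = 0.0282). Ndrg1, a hypoxia-induced gene of differentiating epithelium, fell (-1.26 ± 0.32). The numbers that rose without untreated replicate 2, untreated replicate 3, Aldara replicate 1 and Aldara replicate 2 were 2, 4, 6 and 5 for the carriers, and 2 each for the glycolysis list.

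In a mixed list of antioxidant and glutathione genes, among them targets of the transcription factor NRF2, 9 of 37 rose and none fell (median 0.79). Gclm, the modifier subunit of the enzyme that starts glutathione synthesis, stood at 84.5, 45.4 and 44.1 CPM untreated and 208, 188 and 189 CPM after Aldara (1.75 ± 0.37 (SE), adjusted p = 0.0127). Gsta3, a glutathione transferase, went from 2.06, 1.28 and 3.38 CPM to 16.2, 17.1 and 14.2 CPM (2.79 ± 0.58 (SE), adjusted p = 0.0119). Txnrd1, Prdx1, Sod1, Sod2, Cat, Cbr3 and Mgst1 rose by 0.85 to 1.91. Of these, 0, 1, 2 and 3 members were called without untreated replicate 2, untreated replicate 3, Aldara replicate 1 and Aldara replicate 2.

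The called genes of DNA replication were all higher and those of mitosis all lower. Before a cell divides it licenses replication origins with the MCM helicase, copies its DNA in S phase with polymerases and repair factors, and later builds a spindle and cleaves in 2. In the replication list 19 of 52 tested genes rose (36.5%) and none fell, with 50 fold changes above 0 and a median of 1.12. In the mitosis list 7 of 41 fell (17.1%) and none rose, with 36 fold changes below 0 and a median of -0.67. Over the 15 alternatives the first median ran from 1.02 to 1.21 and the second from -0.91 to -0.22.

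The MCM helicase was represented by Mcm2, Mcm3, Mcm5, Mcm6 and Mcm7. Mcm2 stood at 67.3, 46.3 and 41.0 CPM untreated and 196, 195 and 224 CPM after Aldara (1.99 ± 0.41 (SE), adjusted p = 0.0113). Mcm5 (chromosome 8, 75109569 to 75128439, plus strand, GRCm38) had 65.9, 39.6 and 38.9 CPM untreated and 173, 166 and 117 CPM after Aldara (1.66 ± 0.38 (SE), adjusted p = 0.0181), and Mcm6 (chromosome 1, 128331590 to 128359664, minus strand) had 99.3, 98.6 and 83.8 CPM untreated and 272, 237 and 172 CPM after Aldara (1.27 ± 0.31 (SE), adjusted p = 0.0226). The promoters of MCM genes are a textbook target of E2F factors, which switch on S phase genes, so the letters TTTCGCGC and TTTGGCGC were searched on both strands in the 250 bases before each RefSeq start (GRCm38.p6). Among the replication genes with a listed promoter 5 of 42 held either (11.9%), against 1.16% of the 11559 tested genes with one. They were in 2 of 18 replication genes that rose and 3 of 24 that were not called. The 2 risen genes follow, with the matches in capitals. In Mcm5 a pair of matches on opposite strands overlaps, 142 to 153 bases before the start, and in Mcm6 a like pair and a single match lie between 40 and 110 bases before it. A match of letters is a description of the sequence and was not tested as a binding site.
Mcm5, chr8:75109316-75109407, plus strand: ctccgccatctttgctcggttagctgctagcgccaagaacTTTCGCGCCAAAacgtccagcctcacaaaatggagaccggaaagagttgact
Mcm6, chr1:128359706-128359855, minus strand: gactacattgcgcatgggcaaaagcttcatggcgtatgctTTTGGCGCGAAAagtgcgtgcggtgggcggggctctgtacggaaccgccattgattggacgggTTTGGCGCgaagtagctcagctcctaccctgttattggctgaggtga

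Downstream of licensing, Ccne1, the cyclin that drives entry into S phase, changed most in this list. It was at 5.45, 0.426 and 2.39 CPM untreated and 52.9, 39.3 and 30.03 CPM after Aldara (3.86 ± 0.70 (SE), adjusted p = 0.00702), and Ccne2 rose by 1.97 ± 0.56. Rrm2, the subunit of ribonucleotide reductase that limits the supply of deoxynucleotides, stood at 37.1, 40.2 and 49.6 CPM untreated and 245, 201 and 266 CPM after Aldara (2.49 ± 0.40 (SE), adjusted p = 0.00454). Pold2, a subunit of the lagging-strand polymerase, was at 37.0, 19.0 and 38.9 CPM untreated and 113, 109 and 110.1 CPM after Aldara (1.80 ± 0.32 (SE), adjusted p = 0.00634). Ccne1, Rrm2 and Pold2 kept their calls in all 15 alternatives. Pcna, Fen1, Lig1, Prim1, Rpa1, Rpa2, Chaf1b, Clspn, Uhrf1 and Hells rose by 1.04 to 1.91. Tyms, thymidylate synthase, had 1.24 ± 0.39 and did not pass (adjusted p = 0.0669). Without untreated replicate 2 or 3 the list kept 3 called genes each, without Aldara replicate 1 it kept 8 and without Aldara replicate 2 it kept 9.

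On the mitotic side Anln (anillin), which organizes the contractile ring, stood at 166, 145 and 357 CPM untreated and 39.5, 71.8 and 34.0 CPM after Aldara (-2.21 ± 0.43 (SE), adjusted p = 0.00965), and kept its call in all 15 alternatives. Prc1, which bundles the central spindle, was at 107, 97.9 and 223 CPM untreated and 61.2, 55.7 and 33.0 CPM after Aldara (-1.52 ± 0.37 (SE), adjusted p = 0.0232). Untreated replicate 3 was the highest of the untreated libraries for both genes, and all treated libraries lay below all untreated ones. Kif20a, Kif23, Nusap1, Cenpf and the phosphatase Cdc25c fell by 1.06 to 1.64 on the log2 scale. Cdc20, which activates the anaphase-promoting complex, had 274, 235 and 685 CPM untreated and 170.4, 217 and 118 CPM after Aldara and did not pass (adjusted p = 0.0698). The number of fallen mitosis genes was 2 without untreated replicate 2, 1 without untreated replicate 3, 1 without Aldara replicate 1, 3 without Aldara replicate 2 and 1 without Aldara replicate 3. It was 2 for the 6 floxed libraries alone and 13 by DESeq2. In bulk libraries a change in the share of cells in a phase and a change in RNA per cell cannot be told apart, here and for every cell type or layer below.

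Lipid genes had many rises. Of 51 tested genes of fatty acid and triglyceride metabolism 14 rose (27.5%) and 1 fell, and of 26 genes of cholesterol synthesis and uptake 10 rose (38.5%) and none fell. Fasn, the fatty acid synthase, stood at 127, 91.9 and 64.1 CPM untreated and 439, 417 and 149 CPM after Aldara (1.83 ± 0.38 (SE), adjusted p = 0.0117), with Aldara replicate 3 nearest the untreated values. Elovl4, which makes the very long fatty acids of barrier ceramides, was at 238, 177 and 217 CPM untreated and 629, 1073 and 879 CPM after Aldara (2.03 ± 0.28 (SE), adjusted p = 0.0029). Far2, which reduces fatty acids to the alcohols of wax, was at 157, 74.4 and 75.2 CPM untreated and 860.4, 1019 and 697 CPM after Aldara (3.07 ± 0.43 (SE), adjusted p = 0.0029). Mgll, the monoacylglycerol lipase, was at 216, 146 and 156 CPM untreated and 1311, 1623 and 365 CPM after Aldara (2.67 ± 0.47 (SE), adjusted p = 0.00665). Elovl4, Far2 and Mgll kept their calls in all alternatives.

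Storage and transport genes were included. Plin2, the coat of lipid droplets, had 429.6, 162 and 157 CPM untreated and 1568, 1999 and 1219.7 CPM after Aldara (2.68 ± 0.54, adjusted p = 0.0111), and Fabp5, the epidermal fatty acid binding protein, had 278, 137 and 99.1 CPM untreated and 1100.2, 1085 and 282 CPM after Aldara (2.26 ± 0.53, adjusted p = 0.02). Gpd1, which supplies the glycerol backbone and was named for the size of its change, stood at 10.46, 3.31 and 2.16 CPM untreated and 57.4, 73.8 and 35.3 CPM after Aldara (3.39 ± 0.54 (SE), adjusted p = 0.00443) and held in all alternatives. Acot5, a peroxisomal acyl-CoA thioesterase, went from 1.10, 0 and 1.89 CPM to 45.3, 36.5 and 39.6 CPM (5.20 ± 0.99 (SE), adjusted p = 0.00895). Its near copies limit that count: 7.79% of the 100-base windows of its transcripts also occur in another Acot gene. Acsl1, which activates long fatty acids, was the 1 member that fell (74.5, 172 and 114 CPM untreated and 25.7, 38.1 and 35.6 CPM after Aldara, -1.86 ± 0.31 (SE), adjusted p = 0.00525), and its call held in all alternatives.

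In cholesterol synthesis Mvd, the mevalonate diphosphate decarboxylase, stood at 25.5, 16.2 and 23.8 CPM untreated and 119.9, 169 and 68.8 CPM after Aldara (2.45 ± 0.51 (SE), adjusted p = 0.0122). Idi1 (1.85), Acat2 (1.83), Sqle (1.47), Hsd17b7 (1.44), Pmvk (1.403), Msmo1 (1.16) and Nsdhl (1.11) rose along the pathway. Insig1, which restrains it, rose by 0.99 in the floxed libraries. Fewer members of both lists were called without single libraries. For fatty acids 4 rose without untreated replicate 2, 4 without untreated replicate 3, 8 without Aldara replicate 1 and 7 without Aldara replicate 2, and for cholesterol 1, 2, 6 and 5.

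Sebaceous gland cells make the same lipids, and part of their markers rose as well. Of 15 tested sebaceous markers 6 rose (Mc5r, Elovl3, Far2, Plin2, Fabp5 and Soat1) and none fell, 5 of the 6 being also members of the fatty acid list. Their summed level was 2377 to 5983 CPM in untreated and 7031 to 11900 CPM in Aldara libraries. Elovl3, typical of sebocytes, had 109, 34.5 and 39.2 CPM untreated and 683, 735 and 449.5 CPM after Aldara (3.35 ± 0.69 (SE), adjusted p = 0.0118), and Mc5r, the melanocortin receptor of sebocytes, 19.6, 18.7 and 5.19 CPM untreated and 66.7, 128 and 94.2 CPM after Aldara (2.74 ± 0.71 (SE), adjusted p = 0.0313). Other defining markers did not pass: Scd1 had 1.48 ± 0.50 (adjusted p = 0.0911), Pparg 1.86 ± 0.62 (0.0851) and the wax synthases Awat1 2.23 ± 0.73 (0.0785) and Awat2 1.48 ± 0.59 (0.15). The part of sebaceous cells in the lipid results was not tested. The sebaceous count was 1 without untreated replicate 2 or 3 and 3 without Aldara replicate 1 or 2.

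**Figure D3:**
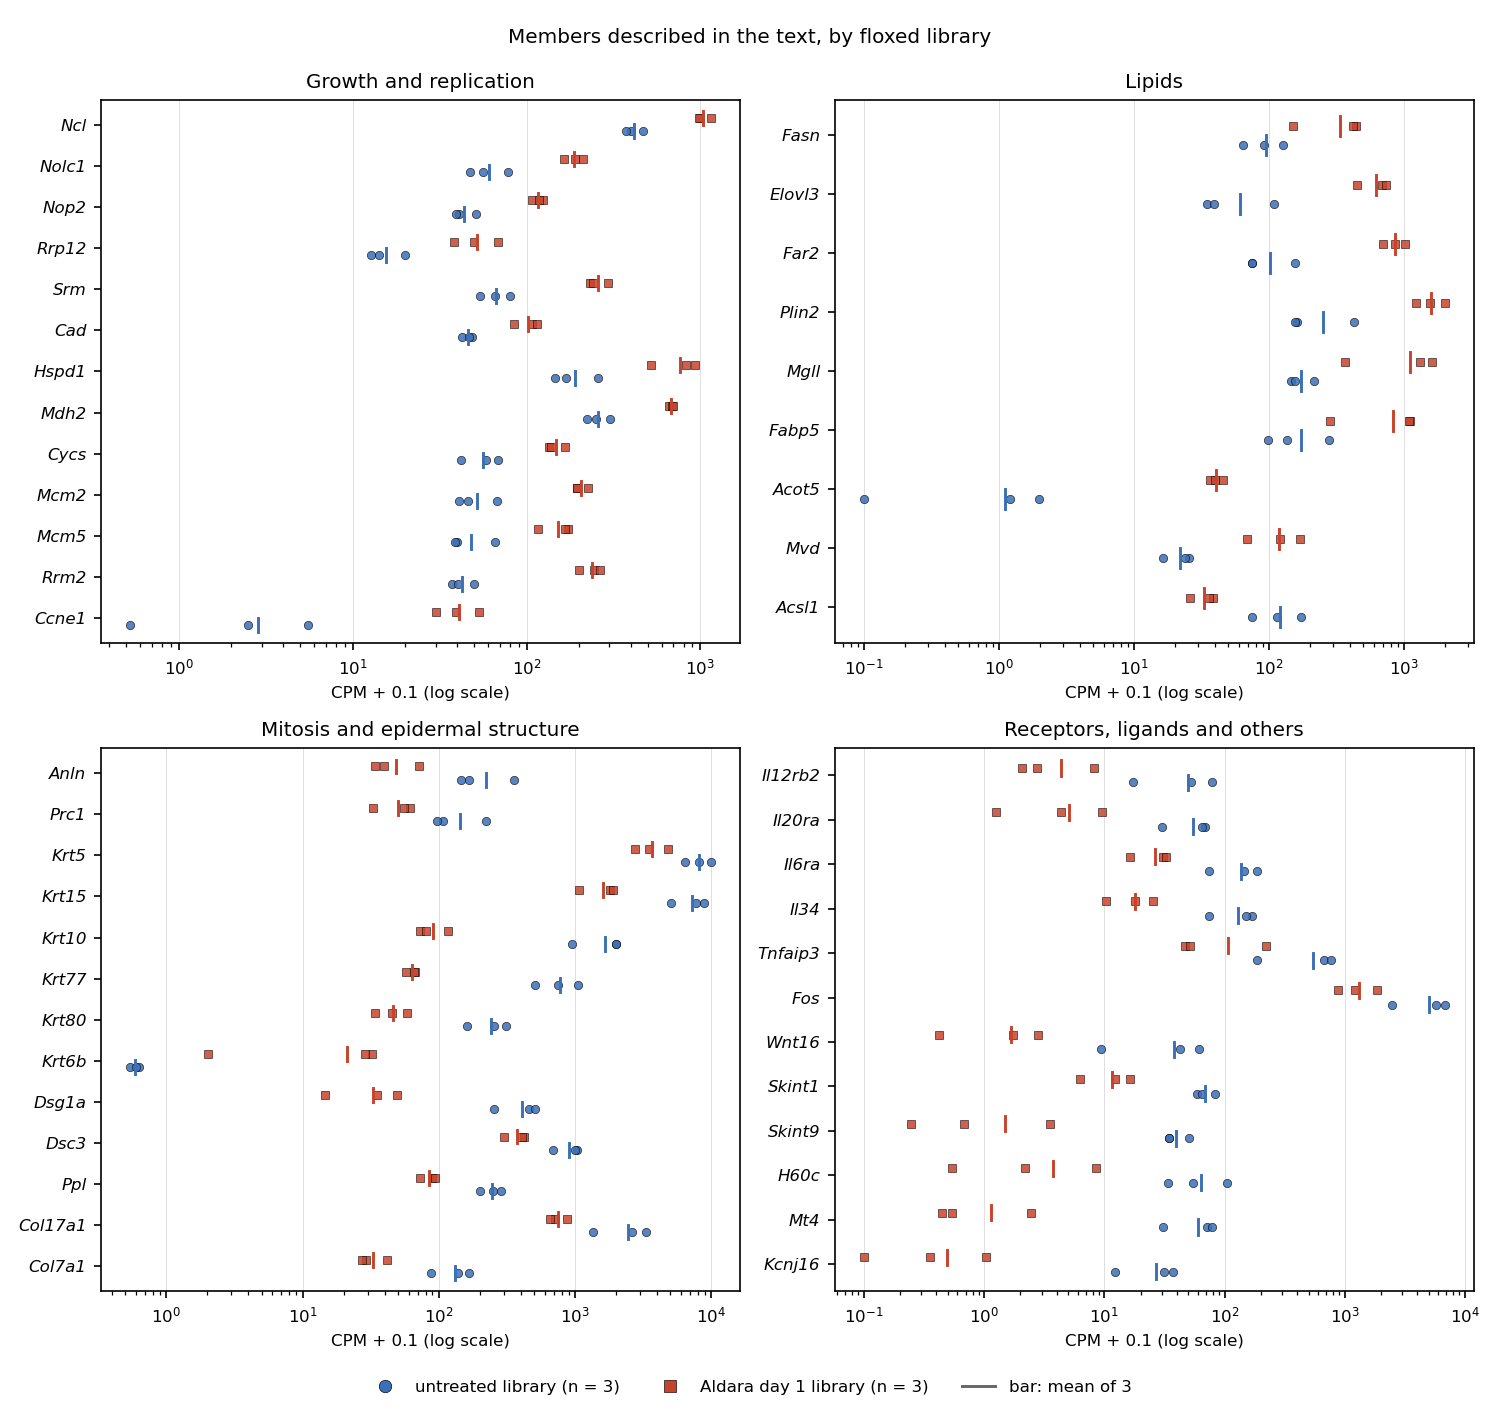
CPM + 0.1 on a log axis for genes described in the text, in each floxed library (circles untreated, squares Aldara, bars the means of 3 libraries), grouped by role. Treated and untreated libraries do not overlap for any gene drawn except Tnfaip3, where the highest treated value (223) lies above the lowest untreated value (187), and Fabp5 and Krt6b show how far apart the treated libraries can lie.

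Some structural genes of the epidermis fell, among them genes of the basal and of the differentiating layers. Of 20 tested keratins 6 fell (30%) and 1 rose. The suprabasal pair Krt10 and Krt1 stood at 956, 2024 and 1999 CPM untreated and 72.6, 118 and 80.6 CPM after Aldara for Krt10 (-4.20 ± 0.60 (SE), adjusted p = 0.00292) and 658, 1154 and 1444 CPM untreated and 56.5, 169 and 120.3 CPM after Aldara for Krt1 (-3.24 ± 0.72 (SE), adjusted p = 0.0163). Krt77, a keratin of the suprabasal epidermis and sweat ducts, was at 512, 1055 and 753 CPM untreated and 66.7, 57.9 and 65.9 CPM after Aldara (-3.61 ± 0.46 (SE), adjusted p = 0.00186). Krt80, of later differentiation, was at 162, 315 and 255 CPM untreated and 45.3, 33.8 and 58.5 CPM after Aldara (-2.41 ± 0.39 (SE), adjusted p = 0.00456). Krt10, Krt77 and Krt80 kept their calls in all 15 alternatives.

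The basal keratin Krt5 fell less (6451, 8224 and 9991 CPM untreated and 3482, 4849 and 2765 CPM after Aldara, -1.15 ± 0.32 (SE), adjusted p = 0.0427), and Krt15, expressed in basal and hair follicle bulge cells, had 5068, 7707 and 8841 CPM untreated and 1817, 1068 and 1911 CPM after Aldara (-2.17 ± 0.47 (SE), adjusted p = 0.0134). Krt6b, a keratin of wounded and hyperproliferative epidermis, rose from 0.442, 0.533 and 0.496 CPM to 1.92, 32.3 and 28.8 CPM (5.396 ± 1.51 (SE), adjusted p = 0.0442), with Aldara replicate 1 close to the untreated level. Its neighbour and near copy Krt6a had 84.7, 12.6 and 34.4 CPM untreated and 109, 194 and 742 CPM after Aldara (2.99 ± 0.93, adjusted p = 0.0661), and 30.1% of the 100-base windows of Krt6b transcripts also occur in Krt6a, so their counts may not be fully separate. Without untreated replicate 2 or 3 the keratins that fell were 3 each.

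Of 13 desmosomal genes 4 fell (30.8%) and none rose. Dsg1a, the desmoglein of differentiated layers, stood at 254, 458 and 509 CPM untreated and 14.6, 34.9 and 49.0 CPM after Aldara (-3.63 ± 0.52 (SE), adjusted p = 0.00296) and held in all alternatives, although 24.6% of its 100-base windows occur in Dsg1b or Dsg1c. Dsc3, the desmocollin of basal cells, was at 693, 1039 and 999.8 CPM untreated and 420.2, 412 and 302 CPM after Aldara (-1.27 ± 0.27 (SE), adjusted p = 0.0136), and Pkp1, a plakophilin, fell, at -1.08. Dsp, the plakin that ties desmosomes to keratins, had -0.88 ± 0.27 and did not pass (adjusted p = 0.0628). The related plakins of the cornified envelope did: Ppl (periplakin) stood at 201, 286 and 250.5 CPM untreated and 72.3, 89.1 and 93.3 CPM after Aldara (-1.53 ± 0.23 (SE), adjusted p = 0.00296) and held in all alternatives, and Evpl (envoplakin) had -1.35 ± 0.37. With Krtdap (389, 530.3 and 449.8 CPM untreated and 76.8, 109.6 and 137 CPM after Aldara, -2.08 ± 0.44 (SE), adjusted p = 0.0132) these were the 3 of 27 cornified envelope and granular layer genes that fell. Desmosomal calls dropped to 1 without untreated replicate 2 or 3 and 2 without Aldara replicate 1. They were 2 for the 6 floxed libraries alone or with no filter on low counts, and 8 by DESeq2. Those of the cornified envelope dropped to 1, 2, 1 and 2 without untreated replicate 2, untreated replicate 3, Aldara replicate 1 and Aldara replicate 2, and to 2 without untreated replicate 1.

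Of 27 hemidesmosome and basement membrane genes, which anchor basal cells, 7 fell (25.9%) and none rose. Col17a1, the transmembrane collagen of hemidesmosomes, stood at 1359, 2637 and 3361 CPM untreated and 719, 882 and 652 CPM after Aldara (-1.71 ± 0.35 (SE), adjusted p = 0.0114). Col7a1, which forms the anchoring fibrils below the basement membrane, was at 87.3, 139 and 166 CPM untreated and 29.1, 41.6 and 27.1 CPM after Aldara (-2.01 ± 0.32 (SE), adjusted p = 0.00454) and held in all alternatives. Lama3 and Lamb3, chains of laminin-332, fell, at -1.23 and -1.48, and Lama5, Lamb2 and Bcam at -1.51, -1.26 and -1.07. The fall was not shared by every member. Itga6, the integrin that binds laminin-332, stood at 196, 237 and 262 CPM untreated and 234, 189 and 321 CPM after Aldara with overlap, and was not called (adjusted p = 0.884). The list had 1 fallen gene without untreated replicate 2 or 3, 4 without Aldara replicate 1 or 2, and 3 without Aldara replicate 3.

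Of 23 gap and tight junction genes 2 rose and none fell (8.70% called, against 7.05% of all tested genes). Connexin 26 (Gjb2), which is raised in hyperproliferative epidermis, had 32.7, 10.2 and 9.198 CPM untreated and 60.5, 37.3 and 227 CPM after Aldara (2.64 ± 0.68 (SE), adjusted p = 0.0301). None of the list was called without untreated replicate 2 or 3.

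Of 17 tested fibroblast markers 3 fell (Col1a2, Lum and Sparc) and none rose, and the summed level of the list was 1180 to 1403 CPM untreated and 244.6 to 473.6 CPM after Aldara. The defining markers Col1a1 (194, 156 and 252 CPM untreated and 4.53, 51.1 and 98.6 CPM after Aldara) and Dcn (252, 193 and 203 CPM untreated and 28.7, 83.6 and 70.7 CPM after Aldara) did not pass (adjusted p = 0.231 and 0.0669), and none was at 0. Of the 17 fold changes 15 were below 0. Those of Pdgfra (0.46, a defining marker, with overlap) and Fbln1 (0.98, without overlap) were above 0 and not called. In the endothelial and mural list, 183 to 343 CPM untreated and 54.6 to 100.4 CPM treated, Rgs5 and Pdgfrb of 17 fell. Rgs5, of pericytes, was at 32.9, 25.1 and 28.3 CPM untreated and 1.85, 2.67 and 5.65 CPM after Aldara (-3.07 ± 0.59 (SE), adjusted p = 0.00935) and held in all alternatives. Krt15, Gata3 and Dlx3, described with other lists, were the 3 of 21 hair follicle markers that fell. The summed level of that list was 6987 to 11071 CPM untreated and 2192 to 3705 CPM treated. Krt15 made up most of the untreated sum in each library. Of the 21 fold changes 14 were below 0 and 7 above. Of the defining markers tested, Cd34, Krt71, Krt25 and Krt27 had -4.01 to -1.10. Lgr5 and Lhx2 had 0.47 and 1.23, and none of these was called. The part of these cells in the matrix and keratin results was not tested. The fibroblast count fell to 0 without untreated replicate 2 or 3 or Aldara replicate 1, to 1 without untreated replicate 1 or Aldara replicate 3, and to 2 without Aldara replicate 2. It was higher for the 6 floxed libraries alone (7), with no filter on low counts (6), by DESeq2 (6, with 1 risen) and by limma voom (9). The hair follicle count fell to 0 without untreated replicate 2 or 3 and to 1 without Aldara replicate 1 or 2. That of the endothelial and mural list fell to 1 without untreated replicate 2, untreated replicate 3, Aldara replicate 1 or Aldara replicate 3.

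**Figure D4:**
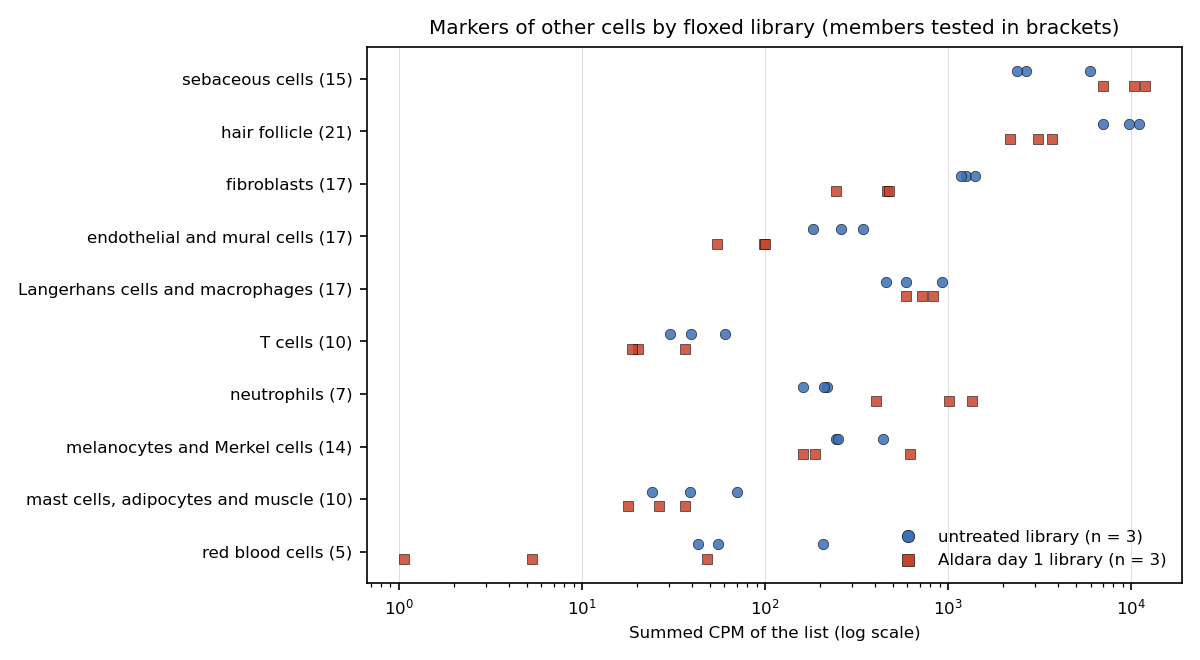
Summed CPM of the marker genes of 10 other cell types in each floxed library (log axis; circles untreated, squares Aldara). Sebaceous and neutrophil sums are higher and hair follicle, fibroblast and endothelial sums lower in all 3 Aldara libraries, while the other lists overlap or, for red blood cells, spread widely. Krt15 makes up most of the untreated hair follicle sum, and Lcn2 most of the neutrophil sum after Aldara.

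Ligands of the resident epidermal T cells had the largest share of falls among the 46 lists. Mouse epidermis holds dendritic epidermal T cells, whose development depends on Skint1, a butyrophilin-like protein of keratinocytes, and which sense H60c, a ligand of the receptor NKG2D. Of 18 tested genes of this group 7 fell (38.9%) and none rose, with a median of -2.55 that stayed between -3.06 and -2.38 in all alternatives. Of the 18 fold changes 16 were below 0, and the 2 above 0 were without overlap but not called. All but H60c of the 7 that fell are Skint genes, which lie together on chromosome 4 between 111919392 and 114245028 (GRCm38).

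Skint1 (chromosome 4, 112006269 to 112029538, plus strand) stood at 58.6, 83.1 and 64.8 CPM untreated and 12.1, 16.3 and 6.18 CPM after Aldara (-2.59 ± 0.49 (SE), adjusted p = 0.00856). Skint6 (chromosome 4, 112804616 to 113286973, minus strand) was at 22.8, 59.8 and 35.9 CPM untreated and 2.36, 5.46 and 0.925 CPM after Aldara (-3.81 ± 0.69 (SE), adjusted p = 0.00701). H60c, on chromosome 10, was at 33.8, 54.6 and 104 CPM untreated and 8.43, 2.09 and 0.438 CPM after Aldara (-4.12 ± 0.82 (SE), adjusted p = 0.0103), and the treated libraries differed widely among themselves at these low levels. These 3 calls held in all 15 alternatives. Skint9 went from 34.3, 50.4 and 34.1 CPM to 3.45, 0.581 and 0.146 CPM (-4.80 ± 1.01 (SE), adjusted p = 0.0125).

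Skint10 went from 12.7, 39.7 and 13.03 CPM to 0.319, 1.05 and 0 CPM (-5.74 ± 1.49 (SE), adjusted p = 0.0318). A count of 0, as in Aldara replicate 3, allows up to 0.146 CPM, a limit that covers counting error only. Skint7 (-3.96) and Skint11 (-3.14) completed the fallen group. Skint5 (-3.13 ± 0.92, adjusted p = 0.0527), Skint8 (-3.02 ± 0.88, 0.051) and Skint2 (-2.50 ± 1.11, 0.203) had lower values that did not pass. Exact sharing of 100-base windows between annotated Skint transcripts was found only for Skint7 and Skint8 (3.49% and 2.95%). Of 10 tested markers of T cells themselves 1 fell and none rose, and the summed level of the list was 30.3, 60.7 and 39.3 CPM untreated and 20.2, 18.8 and 36.6 CPM after Aldara, with overlap. The fallen one was Trbc2, a constant region of the beta chain of the T cell receptor, at 7.73, 20.2 and 17.8 CPM untreated and 4.73, 2.21 and 2.92 CPM after Aldara (-2.20 ± 0.54 (SE), adjusted p = 0.0234), which was not called without untreated replicate 2 or 3 or Aldara replicate 2 or 3. Thy1 had -1.83 ± 0.64 without overlap and did not pass (adjusted p = 0.0996). Cd3e was at 0, 1.17 and 0.180 CPM untreated and 0.0639, 1.16 and 0.0973 CPM after Aldara, and Trdc, the delta chain of their receptor, at 0.147, 1.07 and 0.451 CPM untreated and 0, 0.581 and 2.53 CPM after Aldara. The part of T cells in the values of their ligands was not tested. The ligand list had 3 fallen genes without untreated replicate 2, and 5 without untreated replicate 3, Aldara replicate 1 or Aldara replicate 3.

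Among receptors for cytokines the called genes were all lower. Of 28 tested receptor genes 5 fell (17.9%) and none rose. Il20ra, a chain of the receptor for interleukins 19, 20 and 24, stood at 30.1, 68.1 and 65.02 CPM untreated and 1.15, 9.53 and 4.28 CPM after Aldara (-3.48 ± 0.80 (SE), adjusted p = 0.0181). Il6ra, the interleukin-6 receptor, was at 74.6, 145 and 187 CPM untreated and 16.3, 30.5 and 32.4 CPM after Aldara (-2.36 ± 0.49 (SE), adjusted p = 0.0119). Lifr and Il13ra1 fell, at -1.403 and -1.05. Tnfrsf1a, the main receptor of tumour necrosis factor, had 220.5, 156 and 190.5 CPM untreated and 310.0, 274 and 292 CPM after Aldara and did not pass (adjusted p = 0.0685). None of the 5 was called without untreated replicate 2, untreated replicate 3 or Aldara replicate 1, 3 were called without Aldara replicate 2 and 1 without Aldara replicate 3.

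Secreted factors and their decoys had few calls, all lower. They were 2 of 17 tested genes of the interleukin-1 family (11.8%) and 3 of 27 other cytokines and chemokines (11.1%). Of all tested genes 7.05% were called. Il1rn, the interleukin-1 receptor antagonist, stood at 109, 130.3 and 238 CPM untreated and 9.07, 36.1 and 38.0 CPM after Aldara (-2.52 ± 0.54 (SE), adjusted p = 0.0136), and Il1r2, the decoy receptor, at 60.3, 152 and 188 CPM untreated and 10.1, 18.1 and 18.0 CPM after Aldara (-3.12 ± 0.85 (SE), adjusted p = 0.0407). Il34, the keratinocyte cytokine that maintains Langerhans cells, was at 73.9, 168 and 149.8 CPM untreated and 10.2, 18.0 and 25.3 CPM after Aldara (-2.87 ± 0.83 (SE), adjusted p = 0.0494). Cxcl14 and Cxcl10 fell, at -1.37 and -1.54. Cxcl1, a neutrophil chemokine, had 29.98, 47.8 and 26.0 CPM untreated and 86.3, 67.6 and 56.8 CPM after Aldara without overlap and was not called (adjusted p = 0.155). Of the 3 cytokines and chemokines called, none was called without untreated replicate 2, untreated replicate 3 or Aldara replicate 1, and of the 2 genes of the interleukin-1 family none without untreated replicate 3 and 1 without untreated replicate 2 or Aldara replicate 1. Leaving out Aldara replicate 2 or 3 left 1 cytokine or chemokine called, and DESeq2 called 5 lower and 1 higher.

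Signalling genes inside the cell were called at shares near the 7.05% of all tested genes. Of 31 genes of Toll-like receptors and NF-kB 1 rose and 2 fell (9.68%). Of 23 JAK-STAT genes and inhibitors 1 rose (1.54) and 1, Socs3, fell (8.70%). Tnfaip3 (A20, a brake on NF-kB) stood at 187, 673 and 775 CPM untreated and 47.1, 223 and 51.6 CPM after Aldara (-2.35 ± 0.63 (SE), adjusted p = 0.0357), and Ikbke, a kinase of the pathway, at 29.2, 82.9 and 77.7 CPM untreated and 18.5, 18.7 and 22.1 CPM after Aldara (-1.68 ± 0.42 (SE), adjusted p = 0.0283). Irak3, which inhibits signalling from Toll-like and interleukin-1 receptors, rose (26.6, 12.9 and 35.1 CPM untreated and 52.5, 91.9 and 58.4 CPM after Aldara, 1.44 ± 0.35 (SE), adjusted p = 0.0241). Socs3, the feedback inhibitor of interleukin-6 type signals, was at 313, 929 and 986 CPM untreated and 96.2, 102 and 398 CPM after Aldara and fell (-1.90 ± 0.50 (SE), adjusted p = 0.0326). Their calls were all lost without untreated replicate 2, at adjusted p of up to 0.136 for Tnfaip3 and 0.13 for Socs3 over the libraries left out in turn.

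Immediate-early genes, which respond within minutes to growth factors and to handling of cells, fell in 7 of 35 and rose in 1. Fos stood at 2451, 6782 and 5716 CPM untreated and 877, 1214 and 1870.1 CPM after Aldara (-1.92 ± 0.38 (SE), adjusted p = 0.0104), with Aldara replicate 3 close to untreated replicate 1. Atf3, Zfp36, Klf6, Dusp1, Ccn1 and Gadd45b fell, with log2 fold changes of -1.998 to -1.65. Untreated replicate 1 had the lowest untreated value for 26 of the 35 genes (74.3%), against 32.4% of all 10093 genes with a mean log2 CPM of 3 or more. Egr3, in contrast, rose from 23.0, 20.8 and 16.4 CPM to 51.9, 62.8 and 79.8 CPM (1.69 ± 0.29 (SE), adjusted p = 0.00542) and held in all alternatives. The number fallen was 0 without untreated replicate 2, 2 without untreated replicate 3, 1 without Aldara replicate 1, 4 without Aldara replicate 2, and 12 without Aldara replicate 3. It was 3 for the 6 floxed libraries alone and 11 by DESeq2. The part of cell handling in these values was not tested.

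The 2 interferon lists gave no call, although Cxcl10, which interferons also induce and which was listed with the chemokines, fell as given above. Of 36 tested genes induced by type I interferon and 30 induced by interferon-gamma or of the major histocompatibility complex, edgeR called none in either direction, and 0 and 2 of them had an unadjusted p under 0.05. DESeq2 also called none, and limma voom called 2 of the first list and none of the second. Untreated replicate 1 had the highest untreated value in 34 of the 36 type I genes (94.4%), against 32.3% of all genes with a mean log2 CPM of 3 or more. Bst2, for example, stood at 156, 9.38 and 7.80 CPM untreated and 158, 64.4 and 151 CPM after Aldara, and Ifitm3 at 1536, 462 and 517 CPM untreated and 1656, 1336 and 1141 CPM after Aldara. The median of the type I list was 0.32 with all libraries and ran from -0.08 to 1.76 over the alternatives, so no direction can be given for it.

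Of 25 genes of antimicrobial defence and of the interleukin-17 and interleukin-22 response, 3 rose and 1 fell. S100a8 went from 2.58, 0 and 0.541 CPM to 16.2, 29.2 and 13.9 CPM (4.20 ± 1.16 (SE), adjusted p = 0.042), and Lcn2, lipocalin 2, from 130.5, 2.99 and 9.87 CPM to 1313, 948 and 315 CPM (4.17 ± 1.15 (SE), adjusted p = 0.0425). Slpi, a secreted protease inhibitor, had 5.45, 0 and 2.25 CPM untreated and 59.4, 24.1 and 41.2 CPM after Aldara (3.98 ± 1.14, adjusted p = 0.0482). Rnase4 fell (-1.30 ± 0.36). S100a8 and Lcn2 are also abundant in neutrophils. They were the 2 risen of 7 tested neutrophil markers, of which Il1r2 fell. The list's summed level was 162 to 217 CPM untreated and 406 to 1350 CPM after Aldara, and Lcn2 made up most of it after Aldara. The neutrophil-defining Ly6g, Csf3r and Retnlg were at or near 0 in every library, at no more than 0.533 CPM. The part of neutrophils in these rises was not tested. S100a9, the partner of S100a8, was at 1.10, 0.426 and 0.767 CPM untreated and 5.68, 8.48 and 2.24 CPM after Aldara and was not called (adjusted p = 0.21). None of the 3 risen genes was called without untreated replicate 2, untreated replicate 3, Aldara replicate 1 or Aldara replicate 2, and limma voom called 1 of the list higher.

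Growth factor and developmental signals had few calls. The share called was 10% of 20 genes of the EGF receptor system and 5.56% of 36 of the Wnt, Notch and Hedgehog list, near the 7.05% of all tested genes. Spry1, a feedback inhibitor of receptor tyrosine kinases, stood at 40.8, 79.2 and 82.8 CPM untreated and 13.6, 8.14 and 10.9 CPM after Aldara (-2.63 ± 0.41 (SE), adjusted p = 0.00443) and held in all alternatives. Nrg4, a ligand of the receptor ERBB4, rose (26.4, 19.0 and 20.2 CPM untreated and 69.2, 80.1 and 34.2 CPM after Aldara, 1.48 ± 0.33 (SE), adjusted p = 0.0163). Wnt16 went from 9.35, 61.2 and 42.4 CPM to 0.319, 1.63 and 2.73 CPM (-4.57 ± 0.92 (SE), adjusted p = 0.0108), and Wnt3 had 69.5, 209 and 200.01 CPM untreated and 9.64, 31.4 and 14.3 CPM after Aldara (-3.12 ± 0.88 (SE), adjusted p = 0.0452). These were the 2 of 36 genes of the Wnt, Notch and Hedgehog pathways called, and neither call survived without untreated replicate 2. DESeq2 called 6 lower in that list, and limma voom and the 6 floxed libraries alone 4 each.

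Among 39 epidermal transcription factors 3 fell and 1 rose (10.3% called, against 7.05% of all tested genes). Gata3 was at 749, 1363 and 1162 CPM untreated and 349.8, 383 and 447 CPM after Aldara (-1.47 ± 0.31 (SE), adjusted p = 0.0133), and Maf, a regulator of terminal differentiation, at 40.8, 50.4 and 47.3 CPM untreated and 8.05, 5.69 and 17.2 CPM after Aldara (-2.15 ± 0.45 (SE), adjusted p = 0.0126). Dlx3, another differentiation factor, was low in untreated libraries (1.77, 1.39 and 1.71 CPM), had no count in any Aldara library and fell (adjusted p = 0.0479). Against a floor of 3 counts over the group it was at least 24.3-fold lower, a limit that covers counting error only. Its call held in 3 of the 13 alternatives that tested it and in 0 of 6 with a library left out. Cebpb rose from 10.2, 10.98 and 5.09 CPM to 39.3, 70.4 and 25.8 CPM (2.37 ± 0.52 (SE), adjusted p = 0.0149). None of the 4 was called without untreated replicate 2 or 3. Without Aldara replicate 1 none of the falling factors was called, and 7 were without Aldara replicate 3, 6 without untreated replicate 1, 6 by limma voom and 8 by DESeq2.

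Of 31 ion channel and calcium genes 6 fell and 2 rose. Kcnj16, an inward rectifier potassium channel (chromosome 11, 110968033 to 111027968, plus strand), went from 12.2, 37.3 and 31.4 CPM to 0.255, 0.930 and 0 CPM (-6.32 ± 1.23 (SE), adjusted p = 0.00946). Guca2a, which encodes guanylin, an activator of guanylate cyclase, had 24.9, 23.0 and 33.3 CPM untreated and 0.830, 1.51 and 1.22 CPM after Aldara (-4.53 ± 0.81 (SE), adjusted p = 0.0067). Camk1d, Clca2, Trpv6 and Atp1b1 fell, with log2 fold changes of -4.13 to -1.28, and the calcium pump Atp2a2 rose by 1.58. Outside this list, Mt4, the metallothionein of stratified epithelia, stood at 30.8, 70.8 and 78.0 CPM untreated and 2.36, 0.349 and 0.438 CPM after Aldara (-5.78 ± 0.87 (SE), adjusted p = 0.00338) and held in all alternatives, while none of the other 20 genes of metallothioneins and zinc transport was called. The channel count was 2 fallen without untreated replicate 2, and 3 without untreated replicate 3 or Aldara replicate 1.

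The K14Cre libraries gave the same contrast in cells with the interleukin-12 receptor chain targeted, and share no library with the floxed ones. Fitted alone, these 7 libraries had 2262 of 14281 genes called (15.8%). The genotypes differ in their number of untreated libraries, so the sizes of the 2 counts are not compared. Of the 1130 genes called in floxed controls that could be compared, 1124 had the same sign there (99.5%), against 74.8% of genes not called. These shares are a description, since genes measured in the same libraries are not independent. The 6 with the other sign were Galnt3, Insig1, Cxcl10, Zzef1, Mks1 and Cpsf7, named after their values were seen. Both sets of libraries called 896 genes in the same direction and none in opposite directions, which is 79.2% of the floxed and 39.6% of the K14Cre calls.

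Tested directly, no gene passed for a difference in Aldara effect between the 2 genotypes. The interaction term in edgeR gave 0 called genes (0% of 16051) and a smallest adjusted p of 0.999924. This lack of calls does not show that the effects were equal. At an unadjusted p under 0.05 there were 539, of which 60 were among the 1132 genes called in floxed controls, and DESeq2 called 2. The 5 genes with the smallest p were Ccdc80, Grk3, Syne3, Slc2a6 and Tnip3. Ccdc80, for example, had -2.91 in floxed controls and -7.47 in K14Cre libraries fitted alone.

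The main groups kept their direction in the K14Cre libraries, within the joint fit. The medians there were 1.02 for ribosome biogenesis (39 risen), 1.00 for the respiratory list (31 risen), 0.78 for replication (16 risen), -0.83 for mitosis (14 fallen) and -2.73 for the epidermal T cell ligands (9 fallen). Krt10 had -4.13 in K14Cre libraries fitted alone against -4.20 in floxed ones, Rrm2 1.73 against 2.49, and Nolc1 1.48 against 1.64. Krt6b was a gene with a wide gap, 1.64 against 5.396, and its difference did not pass (unadjusted p = 0.0562). These counts of calls were not tested against each other.

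**Figure D5:**
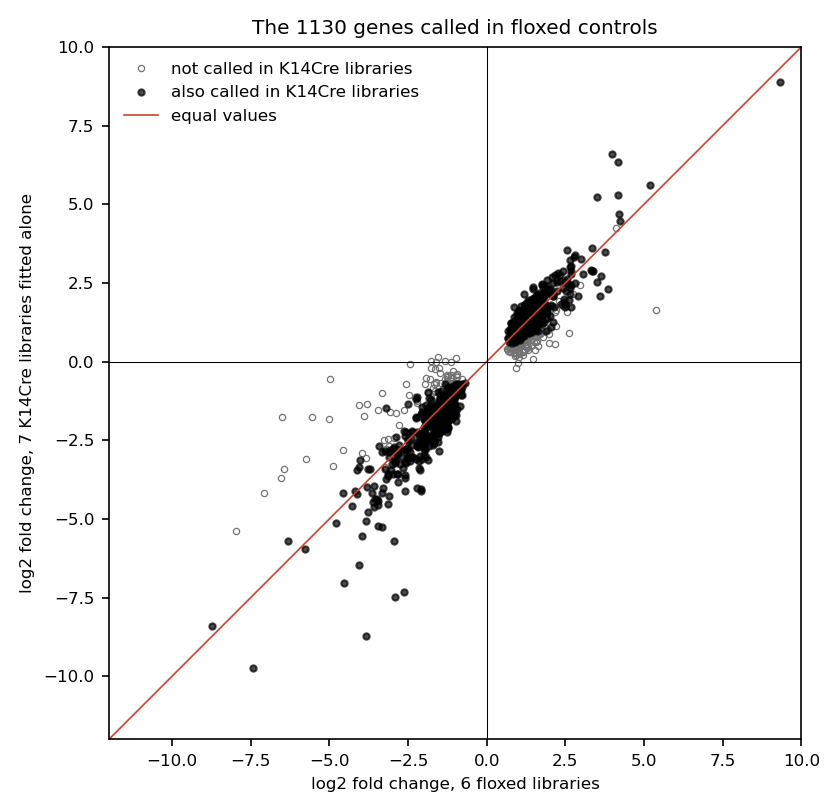
Log2 fold change, Aldara minus untreated, of the 1130 genes called in floxed controls, in the 6 floxed libraries (x axis, from the fit of all 13) and in the 7 K14Cre libraries fitted alone (y axis), with filled points for the 896 genes also called there and a red line at equal values. All but 6 genes lie in the lower left and upper right quadrants.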

How the data were processed

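Keratinocyte RNA was purified with RNeasy Micro columns, copied by Smart-seq2 and read single-end at 100 bases on a NovaSeq instrument, per the labels' protocols. Smart-seq2 keeps neither strand nor molecular identifiers. The authors deposited raw counts per gene. STAR, featureCounts of Subread and GRCm38 were used, per the submitters' processing notes. Versions, annotation release, strand setting and multi-mapping are not given in the sources used, so counts of near copies, overlapping genes and antisense genes are uncertain.

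edgeR 4.0.16 (R 4.3.3) was fitted to all 13 libraries with 1 coefficient per group, which shares the spread estimate (common dispersion 0.424): filterByExpr (minimum count 10), TMM, quasi-likelihood F test, Benjamini-Hochberg adjustment over 16051 genes. Depths were 12274346, 10226953 and 22232478 counts untreated and 15267712, 9256465 and 17977933 after Aldara. The K14Cre contrast was also fitted on its 7 libraries alone. Alternatives used DESeq2 1.42.0, limma 3.58.1 (voom), other scalings and filters, a replicate block and libraries left out. To measure what this procedure can find, known changes were planted in a simulation of the floxed contrast with 15397 genes. Of 100 planted 2-fold changes 4 were called, and of 100 planted 4-fold changes 68. Calls among unchanged genes numbered 3. A gene or list without a call may therefore still have changed by 2-fold or less, and some genes by 4-fold. Far fewer genes were changed in the simulation than were called in the data, which makes the adjusted threshold stricter. The shares recovered may therefore be lower than in the data.

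The 56 gene lists (1630 symbols, 8 not found, 5 matched by synonym) and the rule for named genes were written with earlier results of these data known. The rule takes the 15 largest rises and falls with mean log2 CPM of at least 3, no overlap and no predicted, RIKEN or clone name; all called list members; up to 4 others per list by p; defining markers; the floxed gene, its partner, Tlr7, Krt5 and Krt14; the 10 most abundant genes per group; and the 5 smallest genotype p. Those that did not pass are given only where a result turns on them, and a few genes that the rule takes are not reported here. Coordinates are from GENCODE M21, which held 25635 of the identifiers. Promoters are from RefSeq, GRCm38.p6.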

Additional observations from a re-analysis of the deposited data

How the results depend on the processing

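The count of 1132 called genes was within 1.5 times of that value for the 6 floxed libraries alone (857), RLE scaling (1083), Gm10800 left out (1108), no filter on low counts (990), a minimum count of 30 (1296) and limma voom (1578). DESeq2 called 2041. Leaving out each floxed library in turn gave 215 to 1063, and leaving out the 3 untreated libraries rich in Gm10800 gave 270. In all cases fewer samples were fitted, and a lone pair of libraries in a group was assumed to vary like the other groups. For the difference between genotypes DESeq2 called 2, libraries left out in turn gave 0 to 1, and the other settings gave 0. The share with the same sign in K14Cre libraries was 98.2% for genes called by DESeq2, 99.1% to 100% with libraries left out and 99.9% with the replicate block. The cause of these moves was not tested.

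The replicate number was also fitted as a block, which called 831 genes and no genotype difference. Same-numbered libraries correlated at 0.10, 0.24 and 0.00 in their deviations from the group means. Nothing in the labels ties them, so whether they share more than a number is not known. Untreated replicate 3 correlated best with Aldara replicate 1 (0.15). With the block 2 mitosis genes, 3 cytokine receptors and 5 fibroblast markers were called lower, against 7, 5 and 3.

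Of the 223 called genes named, 40 kept the call in all alternatives and 43 with each floxed library left out. No called gene named changed sign in any alternative. Values that did not pass and changed sign were those of Cd3e (0.16 with no filter, 0.11 by limma voom, -2.32 to 2.07 over the libraries left out, 2.05 without the Gm10800-rich libraries), Gm10800 (-5.28 to 2.41 over the libraries left out, 2.42 without the Gm10800-rich libraries), Itga6 (-0.13 to 0.26 over the libraries left out) and Syne3 (-0.75 to 0.80 over the libraries left out). Genes near 1 CPM or below rest on few counts and their fold changes are imprecise.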
